A study of Mus musculus with 12 samples.

Results

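The 41 genes described here encode the machinery on either side of the synaptic cleft: proteins of synaptic vesicles and of the active zone where vesicles fuse, the scaffold of the postsynaptic density with its kinases and calmodulin-binding proteins, the neuronal pentraxins, and the adhesion molecules that hold the membranes together. They were taken by symbol from a list, drawn up with earlier results of these data known and with neurotransmitter receptor subunits left out, and all 41 were found among the 25238 genes of the count table. All 41 also passed the filter on low counts in each of the 3 comparisons.

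A nerve impulse releases transmitter when vesicles that were docked and primed at the active zone fuse with the presynaptic membrane through the SNARE proteins, with synaptotagmin as the calcium sensor and complexins as clamps and helpers. Across the cleft, PSD-95, SAPAP, Shank and Homer proteins form a layered scaffold that anchors glutamate receptors, and neurexins and neuroligins bind each other across the gap. In cortex these genes are expressed mainly by neurons, and changes in synapse number and strength in the tissue around an infarct are a well known part of the period after a stroke.

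The RNA came from mouse peri-infarct cortex, punched from frozen brain, and was sequenced as poly(A)-selected libraries in 3 groups of 4. The Veh group had a transient occlusion of the middle cerebral artery (MCAo, 45 min). It is labelled Veh, and the study's methods give the vehicle as 5% DMSO in saline, although its results text names a scrambled peptide. The ISP group had the same surgery and received intracellular sigma peptide (ISP), which enters cells and is directed at PTPσ, a receptor for chondroitin sulfate proteoglycans, at 1 μg/g/day from day 1, and brains of both groups were taken at day 14. The control group carries only that label, and the sources used here give no surgery, treatment or day for it. The study's methods give males of 10 to 12 weeks for this surgery, of either the C57BL/6J strain or the Nestin-creER-Ai9 reporter line, and which of these the sequenced mice were is not stated. No source ties a library to its mouse by more than its number, so the p-values below measure the spread between these libraries. The comparison of ISP with Veh asks what the peptide changed in tissue after stroke, and the other comparisons set each stroke group against the control label. Both of the latter use the same 4 control libraries and so are not independent of each other.

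Libraries held 17442711 to 29845629 counts, and single members were covered by 183 to 108597 reads per library. Of the neuronal markers, Rbfox3 was at 443 to 528 CPM (counts per 1e+06 library counts, scaled by TMM) in control, 449 to 530 in Veh and 385 to 444 in ISP. Map2 was at 718 to 886, 602 to 671 and 541 to 707, and Gad1 at 301 to 360, 306 to 341 and 320 to 364. Every ISP library lay below every Veh library for Rbfox3, beside 4.03% of all genes. Every stroke library lay below every control library for Map2, beside 5.86% in Veh and 5.07% in ISP, while Gad1 overlapped. These single markers do not stand for their lists. Of 22 pan-neuronal markers, 12 were above 0 and 10 below in ISP versus Veh. Of 11 interneuron markers, 7 were below 0 and 4 above in ISP versus control, with 2 lower at an edgeR adjusted p under 0.1, beside 3.42% of all genes. ISP 14 and ISP 18 stood apart: the mean of 12 microglia and macrophage markers lay 1.64 and 1.52 above the 12-library mean on the log2 scale, against -0.46 to 0.56 in the other ISP and all Veh libraries and -0.83 to -0.36 in control. The summed level of that list was 286 to 397 CPM in control, 394 to 740 in Veh and 456 to 1679 in ISP. The 10 upper-layer neuron markers also varied, from -0.64 (control 36) to 0.47 (control 19) within control, -0.28 to 0.63 within Veh and -0.70 to 0.10 within ISP, and the 9 deep-layer markers from -1.04 (control 19) to 0.49 within control, -0.83 to 0.58 within Veh and 0.02 to 0.93 (ISP 18) within ISP, while the 22 pan-neuronal markers stayed between -0.23 (ISP 18) and 0.13 (control 36). The counts of members called and the medians of ISP versus Veh and ISP versus control are given below with and without these libraries, and other counts with all libraries. In bulk tissue, fewer synapse-bearing cells and less RNA per cell cannot be told apart.

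Against control, Pclo, Unc13a and the ARF6 exchange factor gene Psd3 fell in both stroke groups, and Homer1 fell in Veh. Bsn, Dlg4, Shank3 and the calmodulin-binding genes Itpka and Nrgn fell in ISP versus control. These calls depended on the libraries and settings used. Without control 21, control 36 or Veh 2, 0 members passed in Veh versus control. In ISP versus control 0 passed without ISP 14 and ISP 18 together, and 0 with the pan-neuronal mean as a covariate. Pclo and Unc13a fell by 24.2% and fell by 19.4% in Veh, and fell by 27.5% and fell by 25.8% in ISP. Between ISP and Veh no gene passed in the main test, and the values that differed most were those of Itpka, Nptxr and Nrgn, lower in ISP, and of Nptx1 and Lrrtm2, higher in ISP. Core vesicle and SNARE genes such as Snap25, Vamp2, Syn1 and Sv2a passed in no comparison.

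**Figure D1:**
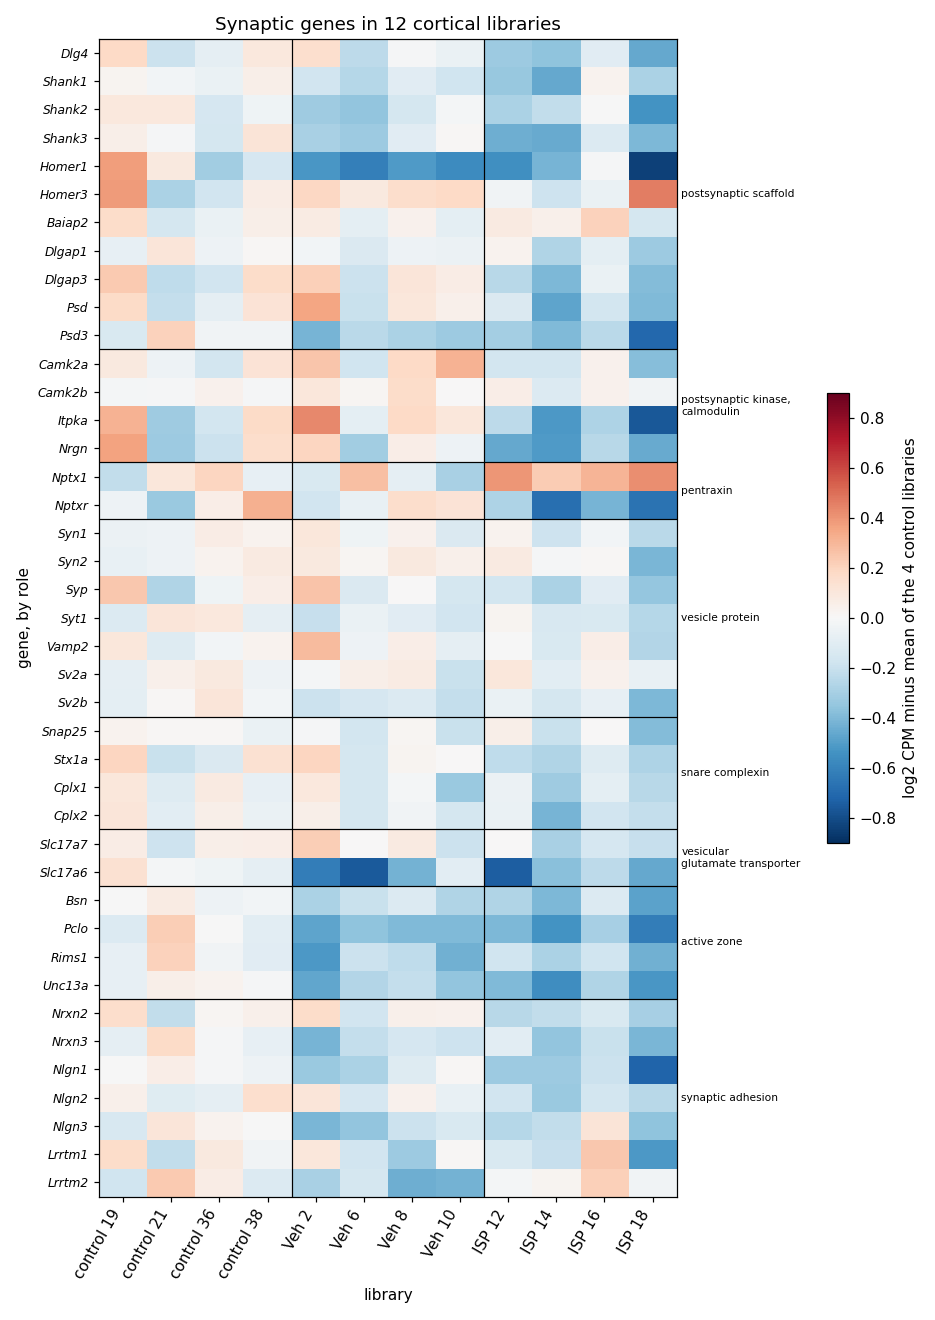
Level of each of the 41 genes (rows, by role) in each of the 12 libraries (columns), as log2 CPM minus the mean of the 4 control libraries, blue for lower and red for higher. The 4 active zone genes are lower in all Veh and ISP libraries than the control mean, while Itpka, Nrgn and Nptxr are lower mainly in ISP and Nptx1 is higher in the 4 ISP libraries.

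In ISP versus Veh, edgeR passed 0 of the 41 members at an adjusted p under 0.1, where percent called over all 15214 genes was 0%. At an unadjusted p under 0.05, 12 of the 41 members (29.3%) were reached, 10 lower and 2 higher in ISP, beside 15.3% of all genes, 7.47% lower and 7.87% higher. limma-voom also passed 0 members, and DESeq2 passed 7 of 41, beside 2.51% of all genes. Itpka, Nrgn, Nptxr, Psd and Dlgap3 were lower, beside 1.35% of all genes, and Nptx1 and Lrrtm2 higher, beside 1.15%. In 3 members (Itpka, Nptxr and Nlgn2) every ISP library lay below every Veh library, beside 4.03% of all genes, and in 1 (Lrrtm2) above, beside 2.74%. The median log2 fold change of the members was -0.09, beside 0.02 over all genes, and 31 of 41 were below 0, beside 47.0% of all genes. Without ISP 14 and ISP 18 the median was -0.006, and 0 members passed in edgeR or DESeq2, beside 0 and 17 of all genes. Leaving out Veh 6 let 3 members pass in edgeR (Itpka and Nrgn lower, Nptx1 higher), beside 72 of 15367 genes. The DESeq2 count ranged from 1 without Veh 8, beside 25 genes, to 12 without Veh 6 or ISP 16, beside 866 and 876. It was 2 without Veh 2, 3 without ISP 14 and 4 without ISP 18, beside 46, 65 and 139 genes.

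In Veh versus control, 4 of the 41 members passed, all lower in Veh, beside 2.23% of all 15126 genes (1.20% lower, 1.03% higher). They were Homer1, Psd3, Pclo and Unc13a. The median of the members was -0.05, beside 0.02 over all genes. In 10 of 41 members (24.4%) every Veh library lay below every control library, beside 5.86% of all genes, and in 0 every Veh library lay above, beside 4.11%. At an unadjusted p under 0.05, 13 members were reached, all lower, beside 8.24% of all genes lower and 8.10% higher. DESeq2 passed 10 members, all lower, beside 6.46% of all genes (3.63% lower and 2.83% higher). The calls changed when single libraries were left out, and so did those over all genes. Without control 21, control 36 or Veh 2, 0 members passed, beside 0, 6 and 6 of all genes. Without control 38, Veh 8 or Veh 10, 2 passed, beside 84, 199 and 111 genes. Without control 19 or Veh 6, 5 passed, beside 461 and 402 genes. With all 12 libraries in 1 fit 0 passed, beside 28 genes, and with the pan-neuronal mean as a covariate 0, beside 9.

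In ISP versus control, 12 of the 41 members passed, beside 10.2% of all 15232 genes. Of these, 11 were lower in ISP (Dlg4, Shank3, Psd3, Itpka, Nrgn, Nptxr, Slc17a6, Bsn, Pclo, Unc13a and Nlgn1), beside 3.42% of all genes, and Nptx1 was higher, beside 6.74%. The median of the members was -0.23, beside -0.009 over all genes, and 37 of 41 were below 0, beside 51.4% of all genes. In 9 members (22.0%) every ISP library lay below every control library, beside 5.07% of all genes, and in 1 (Nptx1) every ISP library lay above, beside 7.00%. At an unadjusted p under 0.05, 23 members were reached lower, beside 10.0% of all genes, and 1 higher, beside 12.3%. DESeq2 passed 19 members, beside 13.7% of all genes, 18 lower, beside 5.09%, and 1 higher, beside 8.61%. Without ISP 14 and ISP 18 together 0 members passed, beside 90 of 15497 genes, and the median was -0.14. Without ISP 14, ISP 18 or control 38 the count was 2, each time Pclo and Unc13a, beside 420, 514 and 486 of all genes. It was 5 without control 19 or control 36, beside 811 and 727 genes, and 21 without ISP 16, beside 2283. With the pan-neuronal or the upper-layer mean as a covariate 0 passed, beside 3 and 6 genes. Where a marker mean varies with the groups the part of each cannot be told apart.

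**Figure D2:**
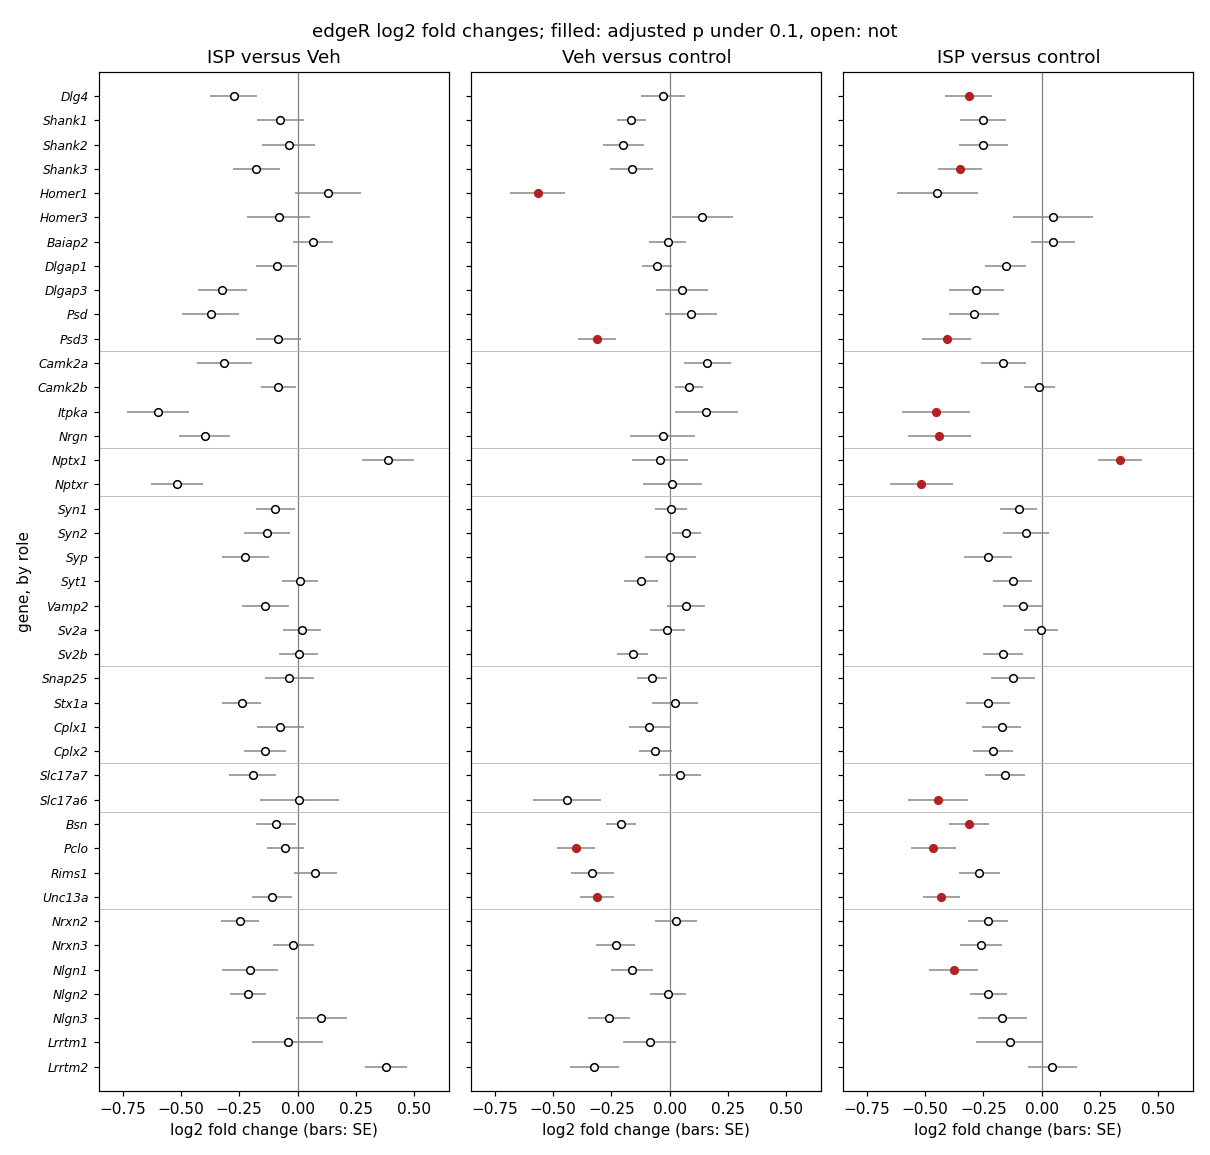
log2 fold change of each of the 41 genes (rows, by role) from edgeR in the 3 comparisons, with bars of 1 SE and filled points for an adjusted p under 0.1. The filled points number 0 in ISP versus Veh, 4 in Veh versus control and 12 in ISP versus control, and all but that of Nptx1 lie left of 0.

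All 4 active zone genes had lower means in both stroke groups than in control. Bassoon and piccolo, encoded by Bsn and Pclo, are giant scaffold proteins of the presynaptic terminal, Rims1 encodes a protein that docks vesicles near calcium channels, and Unc13a encodes Munc13-1, which primes them for release. Of these 4 genes, 2 fell in Veh and 3 in ISP against control, beside 1.20% and 3.42% of all genes. In all 4 every library of either stroke group lay below every control library, beside 5.86% of all genes in Veh and 5.07% in ISP. In ISP versus Veh 0 of the 4 passed, with log2 fold changes of -0.11 to 0.08.

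Pclo (chr5:14514918-14863459, plus strand, GRCm38) was at 281, 355, 304 and 286 CPM in control 19, 21, 36 and 38, at 220, 238, 231 and 232 in Veh 2, 6, 8 and 10, and at 230, 210, 248 and 198 in ISP 12, 14, 16 and 18. All 8 stroke libraries lay below the lowest control library, and the stroke groups overlapped each other. The means were 306 ± 33.9 CPM in control, 230 ± 7.59 in Veh and 222 ± 22.2 in ISP (SD, n = 4 each). The log2 fold change was -0.40 in Veh versus control (SE 0.08, edgeR adjusted p = 0.0717) and -0.46 in ISP versus control (SE 0.10, adjusted p = 0.0275). The call held in 11 of 18 alternatives for Veh and in 16 of 19 for ISP.

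Unc13a (chr8:71624417-71671757, minus strand) was at 453, 497, 489 and 474 CPM in the control libraries, 345, 399, 412 and 374 in Veh and 363, 325, 396 and 332 in ISP. Again no stroke library reached the lowest control library, while Veh and ISP overlapped. Its log2 fold change was -0.31 in Veh versus control (SE 0.07, adjusted p = 0.0849) and -0.43 in ISP versus control (SE 0.08, adjusted p = 0.022), and the call held in 10 of 18 alternatives for Veh and in 16 of 19 for ISP.

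Bsn (chr9:108096022-108190384, minus strand) was at 706, 746, 687 and 697 CPM in control, 582, 617, 650 and 587 in Veh, and 587, 535, 652 and 508 in ISP. The groups did not overlap with control in either case, with the smallest gap between ISP 16 and control 36. It fell in ISP versus control by 0.31 on the log2 scale (SE 0.08, adjusted p = 0.0552), a call that held in 10 of 19 alternatives. The value in Veh versus control was -0.21 (SE 0.06, adjusted p = 0.141). Rims1 had means of 301 ± 30.3 CPM in control, 237 ± 25.3 in Veh and 250 ± 20.3 in ISP (SD, n = 4). Its log2 fold changes of -0.33 and -0.27 did not pass (adjusted p = 0.11 and 0.102), although neither group overlapped control.

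**Figure D3:**
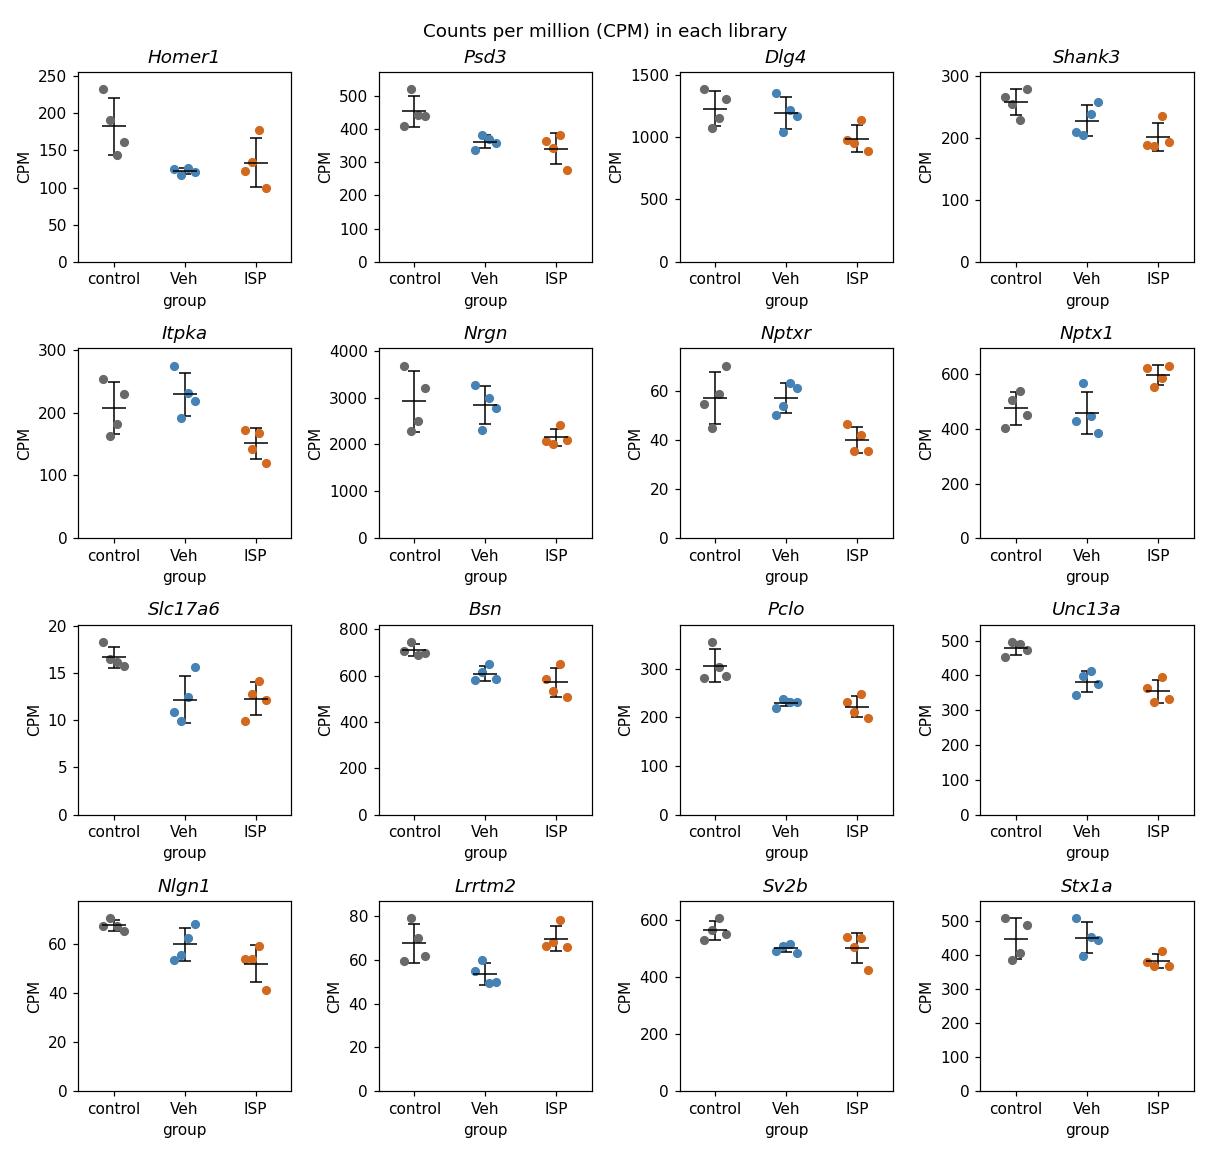
CPM (y axis from 0) of 16 genes in each library of the control, Veh and ISP groups (x axis), with the mean and SD as a bar and whiskers. Pclo, Unc13a and Bsn lie lower in both stroke groups than in control, Itpka and Nptxr in ISP do not overlap Veh, and all 4 ISP values of Lrrtm2 lie above all 4 Veh values.

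The start regions of the 2 active zone genes that passed in both comparisons are shown so that their base composition can be read. These are the 250 bases before the annotated start in RefSeq, build GRCm38.p6, each 5′ to 3′ on the strand of the gene, with the letters of the GC box GGGCGG or its reverse complement in capitals.
Pclo promoter, chr5:14514668-14514917: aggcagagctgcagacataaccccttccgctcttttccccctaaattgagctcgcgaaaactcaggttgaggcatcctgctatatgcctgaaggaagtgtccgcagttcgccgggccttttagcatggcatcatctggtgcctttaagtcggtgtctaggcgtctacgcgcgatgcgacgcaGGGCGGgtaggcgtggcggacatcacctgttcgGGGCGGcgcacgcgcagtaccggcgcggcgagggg
Unc13a promoter, chr8:71671758-71672007: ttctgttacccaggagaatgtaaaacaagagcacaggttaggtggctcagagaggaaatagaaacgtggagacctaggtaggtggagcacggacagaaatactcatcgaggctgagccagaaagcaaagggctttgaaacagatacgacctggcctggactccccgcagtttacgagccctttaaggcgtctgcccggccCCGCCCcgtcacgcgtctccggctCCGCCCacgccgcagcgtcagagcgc
Both windows hold 2 GC boxes, and their GC content is 61.2% and 58%. Windows were matched for 30 of the 41 members, 44 in all since some genes have several starts. A GC box on either strand was in 19 of the 44 (43.2%), beside 32.7% of the 32851 windows in the table. The Egr letters GCGTGGGCG, which overlap a GC box where a G follows, were in 2 (Unc13a and Shank3; 4.55%, beside 0.536%), and GCGGGGGCG in 3 (6.82%, beside 2.57%). The cyclic AMP response letters TGACGTCA were in 1 (Syn1; 2.27%, beside 1.55%), CAGCACC, from the RE1 motif, in 2 (4.55%, beside 5.73%) and the TATA box letters TATAAA in 3 (6.82%, beside 12.4%), each counted on both strands. These are matches of letters only.

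Among the 7 vesicle proteins, 0 passed in any comparison. Synapsins (Syn1, Syn2) tether vesicles to each other, synaptophysin (Syp) is an abundant protein of their membrane, Syt1 encodes the calcium sensor synaptotagmin 1, Vamp2 the vesicle SNARE, and Sv2a and Sv2b encode transporter-like glycoproteins of the vesicle membrane. Their log2 fold changes lay between -0.22 (Syp) and 0.02 in ISP versus Veh, between -0.16 (Sv2b) and 0.07 in Veh versus control, and between -0.23 (Syp) and -0.003 (Sv2a) in ISP versus control. All 7 were below 0 in the last of these.

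Sv2b had the smallest p of this role. It was at 528, 566, 606 and 552 CPM in control, 492, 507, 517 and 485 in Veh, and 539, 504, 535 and 426 in ISP. All 4 Veh libraries lay below the control libraries, while ISP overlapped both groups. The log2 fold change in Veh versus control was -0.16 (SE 0.07, adjusted p = 0.253). Sv2a had means of 557, 549 and 555 CPM in control, Veh and ISP, Syn1 of 1026, 1023 and 957, Syn2 of 458, 478 and 436, Syp of 2211, 2199 and 1880, Syt1 of 1823, 1660 and 1669, and Vamp2 of 1572, 1638 and 1486.

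The SNARE and complexin genes likewise passed in 0 of 3 comparisons. Snap25 and Stx1a encode the membrane SNAREs that pair with synaptobrevin, and Cplx1 and Cplx2 the complexins that bind the assembled complex. Stx1a was at 509, 387, 408 and 490 CPM in control, 509, 399, 453 and 446 in Veh and 380, 369, 411 and 368 in ISP, so that the 4 ISP values overlapped only the lower end of both other groups. Its log2 fold change was -0.24 in ISP versus Veh (SE 0.08, adjusted p = 0.271) and -0.23 in ISP versus control (SE 0.10, adjusted p = 0.179). Snap25 had means of 3678 ± 99.1, 3459 ± 265 and 3372 ± 462 CPM in control, Veh and ISP (SD, n = 4). Cplx1 had means of 1327, 1240 and 1176, and Cplx2 of 1760, 1674 and 1520.

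The vesicular glutamate transporters fill vesicles with glutamate. Slc17a7 (VGLUT1) is the main form of cortical neurons, and Slc17a6 (VGLUT2) is best known from thalamic and other subcortical neurons, whose terminals reach the cortex while their mRNA stays mostly in distant cell bodies. Per kilobase of exon, Slc17a7 stood at 426 CPM in control and Slc17a6 at 3.1, the lowest level of the 41 genes.

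Slc17a6 (chr7:51622006-51671119, plus strand) was at 18.3, 16.5, 16.2 and 15.8 CPM in control, 10.8, 9.9, 12.4 and 15.6 in Veh, and 9.97, 12.8, 14.2 and 12.1 in ISP. Each stroke group lay below control, Veh 10 only narrowly, and the stroke groups overlapped. It fell in ISP versus control by 0.44 on the log2 scale (SE 0.13, adjusted p = 0.0723), a call that held in 8 of 19 alternatives. In Veh versus control the value was also -0.44 (SE 0.15) and did not pass (adjusted p = 0.164). ISP and Veh differed by 0.01 on the log2 scale (SE 0.17, adjusted p = 0.987). Slc17a7 had means of 2296 ± 186, 2349 ± 279 and 2053 ± 180 CPM in control, Veh and ISP (SD, n = 4) and passed in no comparison, with control 21 at 2017 CPM standing below the 3 other control libraries.

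The genes of the postsynaptic scaffold role included members lower in both stroke groups than in control and members lower in ISP. Dlg4 encodes PSD-95, Dlgap1 and Dlgap3 encode SAPAP proteins that link it to the Shank proteins (Shank1, Shank2, Shank3), and Homer proteins bind Shank and group I metabotropic glutamate receptors. Baiap2 encodes the actin regulator IRSp53, and Psd and Psd3 encode exchange factors for the small GTPase ARF6. Of these 11 genes, 0 passed in ISP versus Veh, 2 fell in Veh versus control and 3 fell in ISP versus control, with medians of -0.08, -0.05 and -0.28. Over all genes, 1.20% fell in Veh and 3.42% in ISP versus control.

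Homer1 (chr13:93299635-93405129, plus strand) had the largest fold change of the 41 in Veh versus control. It was at 233, 191, 144 and 161 CPM in control, 125, 117, 126 and 121 in Veh, and 122, 134, 178 and 99.9 in ISP. The Veh libraries were tightly grouped below all control libraries, whereas ISP 16 lay among the control values. Homer1 fell in Veh by 0.56 on the log2 scale (SE 0.12, adjusted p = 0.0732), a call that held in 9 of 18 alternatives, and its value in ISP versus control was -0.45 (SE 0.17, adjusted p = 0.153). The gene gives rise to long scaffold forms and to a short form induced by activity, which counts per gene do not separate.

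The other Homer genes did not follow it past the test. Homer2, which is outside the 41, was at 50.4, 44.3, 41.6 and 47.9 CPM in control, 41.6, 36.6, 38.7 and 46.3 in Veh, and 35.8, 37.8, 43 and 30.5 in ISP. Each stroke group overlapped control, with log2 fold changes of -0.16 in Veh and -0.32 in ISP versus control (adjusted p = 0.448 and 0.109). Homer3 was at 27.9, 17.5, 18.9 and 22.4 CPM in control, 24.2, 22.6, 23.8 and 24.2 in Veh, and 20.8, 18.7, 20.4 and 29.4 in ISP. Its groups overlapped throughout, with log2 fold changes of 0.14 and 0.05 versus control (adjusted p = 0.656 and 0.907).

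Psd3 (chr8:67689082-68212027, minus strand) was at 409, 520, 441 and 440 CPM in control, 337, 380, 370 and 359 in Veh, and 364, 343, 380 and 277 in ISP. No stroke library reached the lowest control library. It fell by 0.31 in Veh (SE 0.08, adjusted p = 0.0974) and by 0.41 in ISP versus control (SE 0.11, adjusted p = 0.0502) on the log2 scale, and ISP and Veh overlapped. The call held in 7 of 18 alternatives for Veh and in 11 of 19 for ISP.

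Dlg4 (chr11:70016942-70047522, plus strand) was at 1383, 1068, 1154 and 1304 CPM in control, 1353, 1039, 1212 and 1170 in Veh, and 973, 950, 1137 and 885 in ISP. ISP 16 lay within both other groups and the other 3 ISP libraries lay below them. The log2 fold change was -0.31 in ISP versus control (SE 0.10, adjusted p = 0.0933), a call that held in 7 of 19 alternatives, and -0.27 in ISP versus Veh (SE 0.10, adjusted p = 0.277). Veh and control differed by -0.03 (SE 0.09, adjusted p = 0.914).

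Shank3 (chr15:89499623-89560261, plus strand) was at 266, 255, 229 and 279 CPM in control, 209, 205, 239 and 258 in Veh, and 189, 187, 236 and 194 in ISP. ISP 16, at 236 CPM, stood above the other 3 ISP libraries and overlapped control. Shank3 fell in ISP versus control by 0.35 on the log2 scale (SE 0.09, adjusted p = 0.053), a call that held in 10 of 19 alternatives. Shank1 and Shank2 had values of -0.25 and -0.25 in that comparison and did not pass (adjusted p = 0.155 and 0.19).

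The remaining genes of this role passed in no comparison in edgeR. Psd had means of 566, 599 and 462 CPM in control, Veh and ISP, and Dlgap3 of 609, 628 and 501, with log2 fold changes of -0.37 and -0.32 in ISP versus Veh (adjusted p = 0.266 for each). Dlgap1 had means of 601, 574 and 539 CPM and Baiap2 of 284, 280 and 293.

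The kinases and calmodulin-binding proteins of the spine were the role with the lowest median in ISP versus Veh, -0.36, with 0 of 4 passing. Camk2a and Camk2b encode the subunits of calcium/calmodulin-dependent kinase II, Itpka encodes an inositol trisphosphate 3-kinase that bundles actin in spines, and Nrgn encodes neurogranin, which holds calmodulin at low calcium. In ISP versus control 2 of the 4 fell, beside 3.42% of all genes. In Veh versus control 0 passed, beside 2.23% of all genes, with a median of 0.12.

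Itpka (chr2:119742337-119751263, plus strand) was at 253, 163, 182 and 230 CPM in control, 275, 192, 231 and 219 in Veh, and 173, 143, 168 and 120 in ISP. Every ISP library lay below every Veh library, while ISP 12 and ISP 16 overlapped the lower control libraries. The log2 fold change in ISP versus Veh was -0.60 (SE 0.13), a difference of -34% that did not pass in edgeR (adjusted p = 0.261). In ISP versus control it fell by 0.45 (SE 0.15, adjusted p = 0.095), and the call held in 9 of 19 alternatives. Without ISP 14 and ISP 18 the value in ISP versus Veh was -0.42, and with an offset for GC content and length it was -0.39.

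Nrgn (chr9:37544492-37552904, minus strand) had the highest level of the 41 per kilobase of exon, 2010 CPM in control against 606 for Cplx1 as the next. It was at 3684, 2278, 2503 and 3203 CPM in control, 3267, 2311, 2988 and 2776 in Veh, and 2082, 2007, 2412 and 2095 in ISP. ISP 16 overlapped Veh 6 and control 21, and the other 3 ISP libraries lay below both groups. It fell in ISP versus control by 0.44 on the log2 scale (SE 0.13, adjusted p = 0.0847), a call that held in 10 of 19 alternatives. The value in ISP versus Veh was -0.40 (SE 0.11, adjusted p = 0.261), and -0.21 with the GC and length offset.

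Camk2a had means of 3206 ± 290, 3555 ± 504 and 2856 ± 340 CPM in control, Veh and ISP (SD, n = 4), with a log2 fold change of -0.31 in ISP versus Veh (adjusted p = 0.277). Camk2b had means of 909, 955 and 901 CPM, and log2 fold changes of -0.08 in ISP versus Veh, 0.08 in Veh versus control and -0.01 in ISP versus control.

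The start regions of Itpka and Nrgn, the members of this role that fell in ISP versus control, are given in the same form for comparison with those of Pclo and Unc13a.
Itpka promoter, chr2:119742087-119742336: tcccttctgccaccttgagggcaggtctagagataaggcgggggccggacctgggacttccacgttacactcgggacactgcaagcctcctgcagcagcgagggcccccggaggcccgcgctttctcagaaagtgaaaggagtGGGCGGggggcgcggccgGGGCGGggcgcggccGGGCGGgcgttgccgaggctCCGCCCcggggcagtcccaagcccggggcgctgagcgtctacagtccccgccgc
Nrgn promoter, chr9:37552746-37552995: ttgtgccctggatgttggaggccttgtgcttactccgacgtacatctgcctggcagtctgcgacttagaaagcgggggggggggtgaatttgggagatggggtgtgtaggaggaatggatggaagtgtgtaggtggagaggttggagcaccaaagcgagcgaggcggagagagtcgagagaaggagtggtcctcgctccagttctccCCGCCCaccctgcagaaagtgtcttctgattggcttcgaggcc
The Itpka window has a GC content of 72.8% and 4 GC boxes, and the Nrgn window 58.4% and 1. The Nrgn window lies before the RefSeq start but covers the GENCODE start given above (37552904). Part of this window therefore lies within the gene as annotated in GENCODE.

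The pentraxin genes moved in opposite directions. Nptx1 encodes a secreted neuronal pentraxin that gathers AMPA receptors at synapses, and Nptxr encodes its membrane-bound partner. In ISP versus control 1 rose, beside 6.74% of all genes, and 1 fell, beside 3.42%.

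Nptx1 (chr11:119538719-119547753, minus strand) was at 405, 507, 541 and 450 CPM in control, 430, 569, 447 and 387 in Veh, and 622, 554, 585 and 633 in ISP. All ISP libraries lay above all control libraries, and Veh 6 overlapped ISP 14. It rose in ISP versus control by 0.33 on the log2 scale (SE 0.10, adjusted p = 0.0644), the only member to rise in any comparison in edgeR. The call held in 10 of 19 alternatives. In ISP versus Veh the value was 0.39 (SE 0.11, adjusted p = 0.261), and with the upper-layer mean as a covariate it was 0.17.

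Nptxr (chr15:79786351-79804766, minus strand) was at 54.9, 45, 58.9 and 70.5 CPM in control, 50.3, 54.1, 63.2 and 61.5 in Veh, and 46.6, 35.4, 42.3 and 35.8 in ISP. Every ISP library lay below every Veh library, and ISP 12 lay just above control 21. It fell in ISP versus control by 0.52 on the log2 scale (SE 0.14, adjusted p = 0.0524), the largest fall among the 41 in that comparison. The call held in 11 of 19 alternatives. The value in ISP versus Veh was also -0.52 (SE 0.11, adjusted p = 0.261), and -0.36 without ISP 14 and ISP 18. Veh and control differed by 0.01 (SE 0.13, adjusted p = 0.976).

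Among the 7 adhesion genes, 1 fell in ISP versus control, beside 3.42% of all genes, and 0 passed elsewhere. Neurexins (Nrxn2, Nrxn3) sit presynaptically and bind the postsynaptic neuroligins, of which Nlgn1 is best known at excitatory and Nlgn2 at inhibitory synapses, with Nlgn3 at both, and LRRTM proteins (Lrrtm1, Lrrtm2) are further neurexin ligands of excitatory synapses. Medians were -0.04 in ISP versus Veh, -0.16 in Veh versus control and -0.23 in ISP versus control.

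Nlgn1 (chr3:25426215-26332460, minus strand) was at 67.4, 70.6, 67.2 and 65.4 CPM in control, 53.6, 55.5, 62.4 and 68.3 in Veh, and 53.9, 53.9, 59.3 and 41.1 in ISP. The control values were close together, all ISP libraries lay below them, and Veh overlapped both, with Veh 10 inside the control range. It fell in ISP versus control by 0.38 on the log2 scale (SE 0.10, adjusted p = 0.0611), a call that held in 8 of 19 alternatives. Nlgn2 had means of 438, 433 and 373 CPM and every ISP library below every library of both other groups, but its log2 fold changes of -0.21 and -0.23 did not pass (adjusted p = 0.277 versus Veh and 0.113 versus control).

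Lrrtm2 was singled out after its values were seen, because it was the only member with every ISP library above every Veh library. It was at 59.4, 79.1, 70.2 and 61.7 CPM in control, 54.8, 60.1, 49.6 and 49.9 in Veh, and 66.3, 68.4, 78.1 and 65.8 in ISP, so that ISP lay within the control range and Veh mostly below both. The log2 fold changes were 0.38 in ISP versus Veh (SE 0.09, adjusted p = 0.261), -0.32 in Veh versus control (SE 0.10, adjusted p = 0.155) and 0.05 in ISP versus control (SE 0.10, adjusted p = 0.846). Nrxn2 had means of 506, 512 and 431 CPM in control, Veh and ISP, Nrxn3 of 163, 137 and 136, Nlgn3 of 79.1, 65.5 and 70.3, and Lrrtm1 of 42.5, 39.8 and 38.6.

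Marker levels of other cell types moved with the same groups. All 12 astrocyte and all 12 microglia and macrophage markers had fold changes above 0 in both stroke groups versus control, with 8 and 11 of them passing in ISP and 2 and 2 in Veh, and 8 of 10 oligodendrocyte markers passed in ISP. Over all genes 6.74% passed higher in ISP and 1.03% in Veh. Gfap was at 24.5 to 31.2 CPM in control, 120 to 644 in Veh and 290 to 2380 in ISP. The summed level of the astrocyte list was 3855 to 4320 CPM in control, 4393 to 6003 in Veh and 4871 to 7618 in ISP, and that of the oligodendrocyte list 3527 to 5294, 2982 to 7442 and 5028 to 12010. Of the 10 blood and lymphoid markers, 3 were at 0 in every library, Hbb-bs among them, and their summed level was at most 18.5 CPM. Of the 22 pan-neuronal markers, 1 passed in ISP versus control, lower, with a median of -0.14, beside -0.23 for the 41 genes. There 20 of the 22 were below 0, and 6 were reached at an unadjusted p under 0.05 (27.3%, beside 22.3% of all genes), all lower. In Veh versus control 0 passed, with a median of -0.08, beside -0.05 for the 41 genes. Again 6 were reached (27.3%, beside 16.3%), all lower. In ISP versus Veh the pan-neuronal median was 0.006, with 4 reached lower and 3 higher (31.8%, beside 15.3%). In that comparison 0 markers of any list passed in edgeR, as over all genes. There all 12 microglia and macrophage markers (median 1.12), all 10 oligodendrocyte markers (0.78) and all 9 deep-layer neuron markers (0.77) had log2 fold changes above 0. Of these, 9, 7 and 4 were reached at an unadjusted p under 0.05, all higher, beside 7.87% of all genes. Of the 10 upper-layer markers, 8 were below 0 (median -0.41), beside 47.0% of all genes, with 5 reached, all lower, beside 7.47%. Of 18 short mRNAs used as a sign of RNA quality, 17 were below 0 in ISP versus Veh (median -0.18, beside -0.09 for the 41 genes), with 5 reached at an unadjusted p under 0.05, all lower. In ISP versus control 1 of the 18 passed, lower, and their mean ran from -0.28 (control 21) to 0.29 (control 19). The part of these levels in the synaptic results was not tested beyond the covariate fits above.

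**Figure D4:**
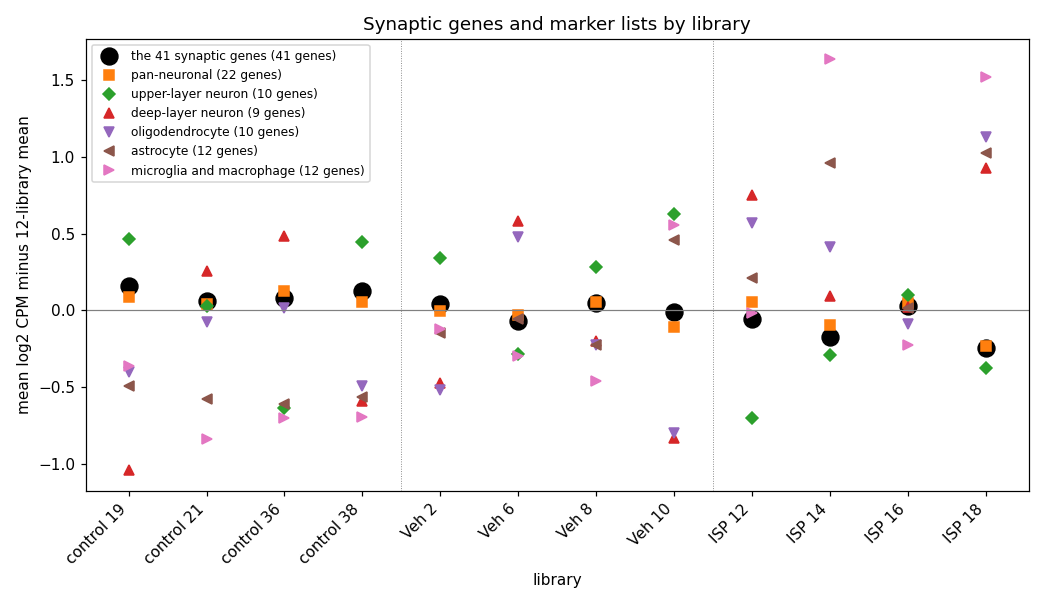
Mean log2 CPM of the 41 synaptic genes and of 6 marker lists in each library (x axis), relative to the mean of the 12 libraries. The synaptic mean runs from 0.16 in control 19 to -0.24 in ISP 18, while microglia and macrophage markers reach 1.64 in ISP 14 and 1.52 in ISP 18.

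The members differed in length and base composition along with their fold changes. The 4 members that fell in Veh had exonic lengths of 12.0 to 22.5 kb with a median of 15.1 kb, against 6.02 kb for the other 37, and a median GC content of 43.8% against 54.7%. The 11 that fell in ISP versus control had a median of 12.6 kb but ranged from 1.45 kb (Nrgn) to 22.5 kb (Pclo). Across the 41 genes, which share libraries and overlap in GC content and length, Pearson's r of the log2 fold change with GC content was -0.485 in ISP versus Veh, 0.607 in Veh versus control and 0.059 in ISP versus control, beside -0.155, 0.152 and -0.009 across all genes with a known value. The Veh libraries enter the former pair with opposite signs. With log2 length r was 0.246, -0.488 and -0.207 across the 41. With the GC and length offset, Rims1 and Unc13a passed lower in Veh versus control, beside 124 of 14852 genes lower and 134 higher. In ISP versus control Psd3, Nrgn, Nptxr, Slc17a6, Pclo, Rims1 and Unc13a passed lower, beside 596 of 14953 genes, and Nptx1 higher, beside 1130.

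**Figure D5:**
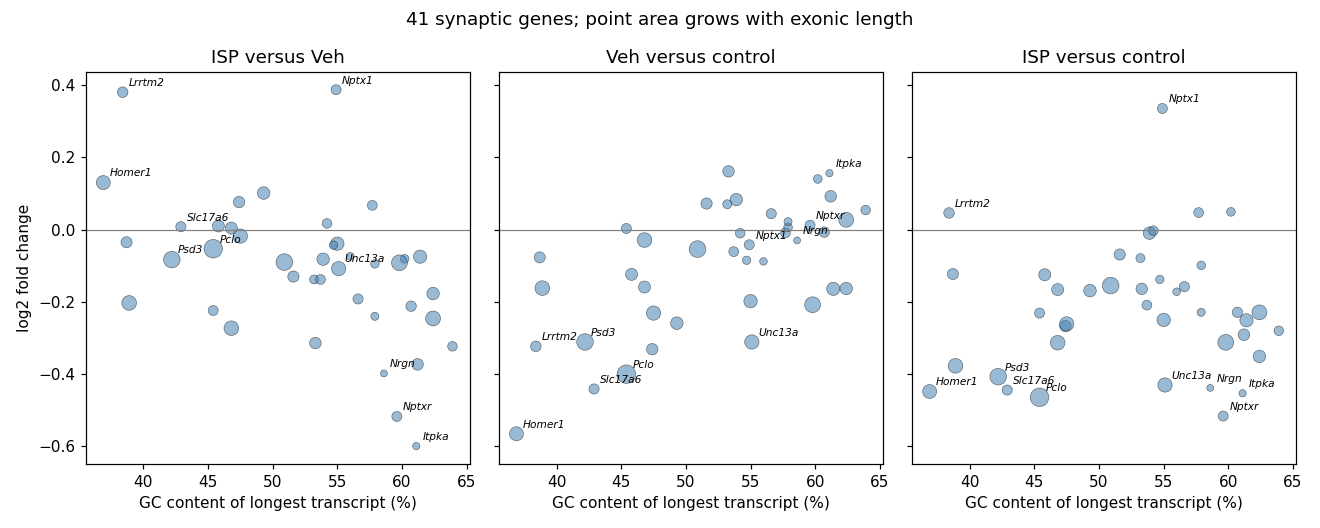
log2 fold change of the 41 genes (y axis) against the GC content of the longest transcript in percent (x axis) in the 3 comparisons, with point area growing with exonic length. The long, GC-poor Homer1, Psd3 and Pclo lie low in Veh versus control, and the short, GC-rich Itpka and Nrgn lie low in ISP versus Veh.

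Wider lists of the same compartments, which share no gene with the 41, were counted in the same fits, in which 3.42% of all genes fell in ISP and 1.20% in Veh versus control. Of 39 further presynaptic genes, 38 were tested in ISP versus control and 4 fell, among them Rph3a, a Rab3 effector (log2 fold change -0.43), Ppfia2, a liprin of the active zone (-0.42), and Erc2, an active zone scaffold that binds RIM (-0.28). In Veh versus control 0 of the 39 passed in edgeR, with 8 (20.5%) reached at an unadjusted p under 0.05, beside 16.3% of all genes. Of 29 further postsynaptic genes, 7 fell and 1 rose in ISP and 2 fell in Veh versus control.

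Those with the smallest p were Lrrc7, which encodes densin-180 (-0.53 in Veh and -0.63 in ISP), Cnksr2, a scaffold that binds PSD-95 (-0.28 and -0.49), Dlgap2, a further SAPAP (-0.35 and -0.53), and Tanc2, a scaffold of the density (-0.32 and -0.28). All 4 passed in ISP, and Lrrc7 and Tanc2 also in Veh. The gene that rose was Psd2, named after its value was seen, at 0.30 in ISP.

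Of 32 further adhesion genes, 9 fell in ISP and 1 in Veh versus control. Slitrk4, a ligand of presynaptic receptor phosphatases (-0.50 in ISP), Cadm2, a SynCAM (-0.38), Nptx2, the activity-induced pentraxin (-0.75), and Clstn3, a calsyntenin (-0.33), had the smallest p, and Cadm2 was the gene that fell in Veh (-0.34). In ISP versus Veh 0 genes of these 3 lists passed in edgeR, with 3 presynaptic (7.89%), 6 postsynaptic (20.7%) and 4 adhesion genes (12.5%) reached at an unadjusted p under 0.05, beside 15.3% of all genes. Ptprs, which encodes the receptor PTPσ at which ISP is directed, was at 422, 456, 452 and 481 CPM in control, 371, 423, 431 and 455 in Veh, and 399, 392, 382 and 410 in ISP. Every ISP library lay below every control library, and Veh overlapped both. Its log2 fold changes were -0.08 in ISP versus Veh, -0.10 in Veh versus control and -0.19 in ISP versus control (adjusted p = 0.628, 0.597 and 0.126).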

How the data were processed

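Poly(A)-selected RNA of peri-infarct cortex was sequenced in 12 libraries, 4 per group. The authors aligned reads with HISAT2 to mm10, took gene models from GENCODE and counted reads per gene with HTSeq at default parameters (tool versions are not given in the sources used here), and the deposited table holds these raw counts, 1 whole number per gene and library. Whether the libraries were stranded is not described, so how reads of a gene and an overlapping antisense gene were assigned is not known.

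Groups were taken from the labels. For each comparison, all genes of the 8 libraries involved were fitted in edgeR 4.0.16 under R 4.3.3 (the filterByExpr filter, TMM factors, then glmQLFit and glmQLFTest), with Benjamini-Hochberg adjustment over all genes tested and calls at an adjusted p under 0.1. The study's criterion also asks for a log2 fold change above 0.5, which was not applied here. By size, only Homer1 in Veh and Nptxr in ISP versus control would meet it among the members called in edgeR. Among the members that DESeq2 called in ISP versus Veh, Itpka (-0.61) and Nptxr (-0.52) would meet it. SE is the log2 fold change over the square root of F. The script was tested on simulated data. CPM used TMM over the 12 libraries and all genes, and relative levels used log2 CPM with a prior count of 2. Alternatives used DESeq2 1.42.0, limma 3.58.1 (voom with quality weights) and a loess offset with span 0.3, and others are named with their values. DESeq2 with libraries left out and the upper-layer covariate were added after the data were seen. Positions, exonic length and GC content came from GENCODE M21, which matched 24383 of 25238 symbols, and promoters from RefSeq. Pairs of libraries within a group differed beyond counting noise. The authors' DESeq2 results were not used.

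The members and lists were chosen with earlier results of these data known. All 41 members are named with their means or fold changes. Values per library are given for members past the threshold, for the member with the smallest p of a role with none, for Slc17a6 and the Homer genes, and for Ptprs, and up to 4 genes with the smallest p are named from each further synaptic list. Of the genes this rule takes, 1 is not reported here.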

Additional observations from a re-analysis of the deposited data

Results flagged for a closer look

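For each of the 41 genes and 3 groups of 4 libraries, the gap between the extreme library and its nearest neighbor was set against the group's range, with Dixon's 95% critical value for 4 values. Chance marks about 1 in 20 groups, and 2 of 123 were marked. Shank3 in ISP 16 was at 236 CPM, above 187 to 194 CPM in the other ISP libraries, with a gap of 0.867 of the range. Slc17a7 in control 21 was at 2017 CPM, below 2379 to 2402 CPM in the other control libraries, with a gap of 0.941 of the range.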

How the results depend on the processing

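In ISP versus Veh, edgeR called 0 genes and 0 members under DESeq2 size factors, no filter, at least 10 counts in every library, limma-voom, all 12 libraries in 1 fit, the GC and length offset, an adjusted p under 0.05 and both covariates. DESeq2 called 402 genes and 7 members. Leaving out 1 library gave 0 to 72 genes and 0 to 3 members in edgeR, and 25 to 876 genes and 1 to 12 members in DESeq2. Without both ISP 14 and ISP 18, DESeq2 called 17 genes and 0 members.

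In Veh versus control, edgeR called 337 genes and 4 members. No filter gave 510 genes, and DESeq2 1109 genes and 10 members. All 12 libraries in 1 fit gave 28 genes and 0 members, an adjusted p under 0.05 gave 18 and 0, and the pan-neuronal covariate 9 and 0. The GC and length offset gave 258 genes and 2 members. Leaving out 1 library gave 0 to 461 genes and 0 to 5 members.

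In ISP versus control, edgeR called 1547 genes and 12 members, and DESeq2 19 members. An adjusted p under 0.05 gave 691 genes and 2 members, the pan-neuronal covariate 3 and 0, and the upper-layer covariate 6 and 0. Without both ISP 14 and ISP 18 the counts were 90 and 0. Leaving out 1 library gave 420 to 2283 genes and 2 to 21 members. Apart from the stricter threshold and the smaller numbers of libraries, the cause of these shifts was not tested. In the alternatives run, 0 calls changed sign. The DESeq2 runs with libraries left out and the upper-layer covariate were chosen after seeing the data.

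Limits: with 4 libraries a group, the SEs of the members were 0.06 to 0.17 on the log2 scale, and differences several SEs wide, such as that of Itpka in ISP versus Veh, did not pass. The table gives counts per gene, so splice forms such as those of Homer1 are not separated, and cell makeup, punch depth and region cannot be told apart from group. No paired analysis was possible because the groups share no replicate number in the labels, and no batch is given.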
